A study of Equus caballus with 23 samples.

Results

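Mitochondrial ribosomal proteins are the protein parts of the ribosome inside mitochondria, and they were followed here in the gluteus medius, a large hindquarter muscle, of Arabian horses over a season of flat race training. The genes were those whose symbol in the authors' tables starts with MRPL (named for the large subunit) or MRPS (named for the small subunit). This gave 67 of 26991 genes, 41 named MRPL and 26 named MRPS. The choice went by symbol, and those tables, which hold the authors' test results, give a symbol for 8842 genes. The symbols MRPL32, MRPL41, MRPS2 and MRPS12, among others, are not in them. What decided a gene's place there was not tested, so measured levels may have had a part in the choice. All 67 passed the filter on low counts, which may follow from that choice. The same limit holds for the gene lists below. The lowest count of any of the 67 in any library was 19.

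RNA sequencing of needle biopsies gave 23 libraries in 3 groups. T0 held 5 untrained horses aged 2.5 years (3 male, 2 female). T1, sampled after the intense gallop training that precedes racing, held 8 horses aged 3 years (4 male, 4 female). T2, sampled once the racing season had ended, held 10 horses aged 3 years (7 male, 3 female). Whether any horse gave more than 1 biopsy is not in the labels, so the libraries were compared as unpaired. Age and training status cannot be told apart where T0 is compared. Each p-value measures the spread between these libraries, and in whole biopsies fewer cells of a type and less RNA per cell cannot be told apart.

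The mitochondrial ribosome, or mitoribosome, translates the few proteins that the mitochondrial genome encodes, which are core subunits of the respiratory chain and ATP synthase. Its proteins are encoded in the nucleus, made in the cytosol and imported, and they assemble on ribosomal RNA transcribed from the mitochondrial genome. Some descend from bacterial ribosomal proteins and others are found only in mitochondria. In muscle, endurance work is known to increase mitochondrial content, for which nuclear and mitochondrial gene products must be supplied together.

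Total counts ran from 12185608 to 23641809 per library, and the share of mitochondrially encoded genes averaged 42.9% (SD 7.77) over the 5 T0 libraries, 53% (SD 3.99) over the 8 of T1 and 48.1% (SD 2.87) over the 10 of T2. Libraries therefore differed in how much sequencing was left for nuclear genes, and their TMM scaling factors ran from 0.66 (T1 library m3) to 1.45 (T0 library m9). Library m3 stood apart within T1 and m12 had the lowest factor within T0 (0.749), so counts of calls are also given without them. Of 9 skeletal muscle genes looked for and measured, such as ACTA1, CKM, TTN and RYR1, all passed the filter, and their summed level was at least 37090 CPM (counts scaled to a common library size by TMM) in each library. For the 5 neutrophil, 6 lymphocyte and 6 erythroid markers listed, the authors' tables pair no identifier with the symbol, so these cell types were not followed here.

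The mitoribosomal genes were expressed at low to moderate levels. CPM is not corrected for transcript length, so the levels of different genes are not ranked against each other as abundances. Mean CPM over the 23 libraries ran from 2.49 for MRPL53 to 136 for MRPS15, and the highest values besides MRPS15 were those of MRPL15 (128 CPM), MRPS36, MRPL12 and MRPS24. The lowest besides MRPL53 were those of MRPS34 (4.74 CPM), MRPL49, MRPS28 and MRPL22. Of the 67 genes, 50 had at least 100 counts in every library.

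The genes' mean level was lowest in T0 and highest in T2. The mean log2 CPM over the 67 genes averaged 4.14 (SD 0.125) over the 5 T0 libraries, 4.39 (SD 0.213) over the 8 of T1 and 4.57 (SD 0.173) over the 10 of T2. In T0 its values were 4.20, 4.06, 4.13, 4.33 and 4.01 in libraries m8, m9, m10, m12 and m13. In T1 they ran from 4.15 (m11) over a median of 4.36 to 4.85 (m3), and in T2 from 4.28 (m15) over a median of 4.58 to 4.78 (m16). The groups overlapped: the highest T0 library, m12, lay above the lowest of T1 and of T2. The group means rose in the order T0, T1, T2 for 48 of the 67 genes, in the order T0, T2, T1 for 14, in the order T1, T0, T2 for MRPL27, MRPL52, MRPS25 and MRPS34, and in the order T2, T0, T1 for MRPL53.

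**Figure D1:**
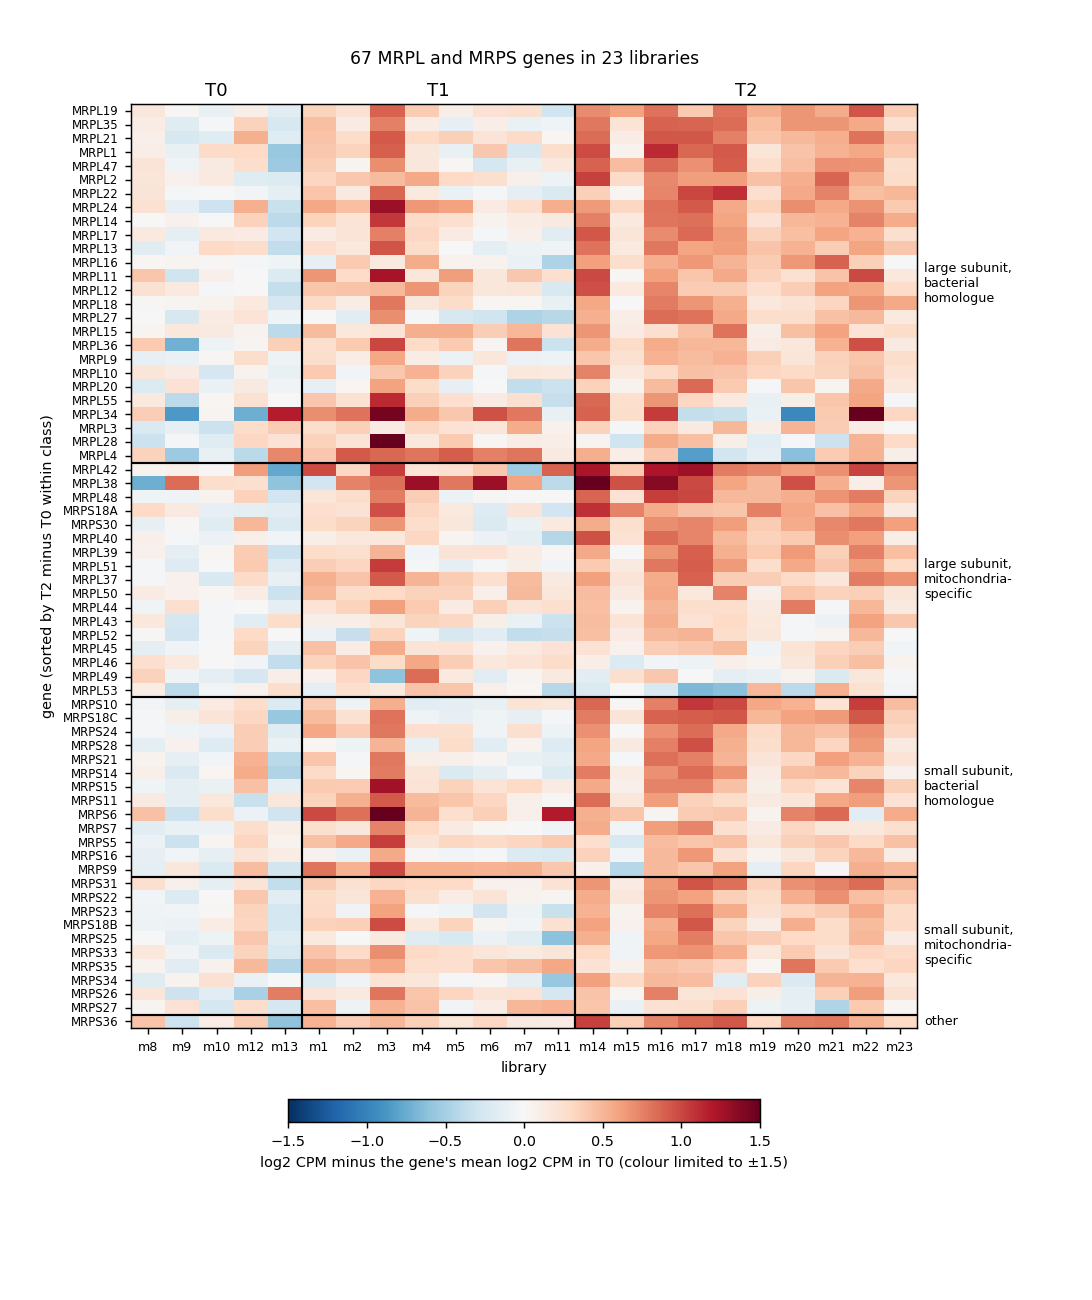
Log2 CPM of each of the 67 genes (rows, by subunit and origin) in each of the 23 libraries (columns, by group), minus the gene's mean log2 CPM in T0. T2 columns are mostly red, T1 columns are paler apart from m3, and the T2 column m15 is the palest of its group.

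Single libraries sat at the edge of their group for many genes at once. In T1, library m3 had the highest value of the group for 48 of 67 genes and m11 the lowest for 33. In T0, m12 was highest for 38 and m13 lowest for 39, and in T2, m15 was lowest for 36. The part of RNA quality and of tissue sampling in these offsets was not tested.

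How the counts are scaled bears on every direction given for the group. As a share of all counts, the 67 genes averaged 0.187% (SD 0.0413) over the 5 T0 libraries, 0.17% (SD 0.0107) over the 8 of T1 and 0.215% (SD 0.0257) over the 10 of T2, so on this scale T1 had the lowest mean. As a share of counts outside mitochondrially encoded genes, they averaged 0.328% (SD 0.0602), 0.364% (SD 0.0306) and 0.415% (SD 0.0558), which rises over the 3 groups as the TMM-scaled values do. Without scaling factors the median log2 fold change of all tested genes moved to -0.42 (T1 minus T0), -0.29 (T2 minus T0) and 0.13 (T2 minus T1). Relative to that median, the mitoribosomal genes' own median stood 0.24, 0.48 and 0.27 higher in turn, against 0.26, 0.48 and 0.26 with TMM. The changes below are therefore changes relative to the bulk of genes in the same libraries.

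**Figure D2:**
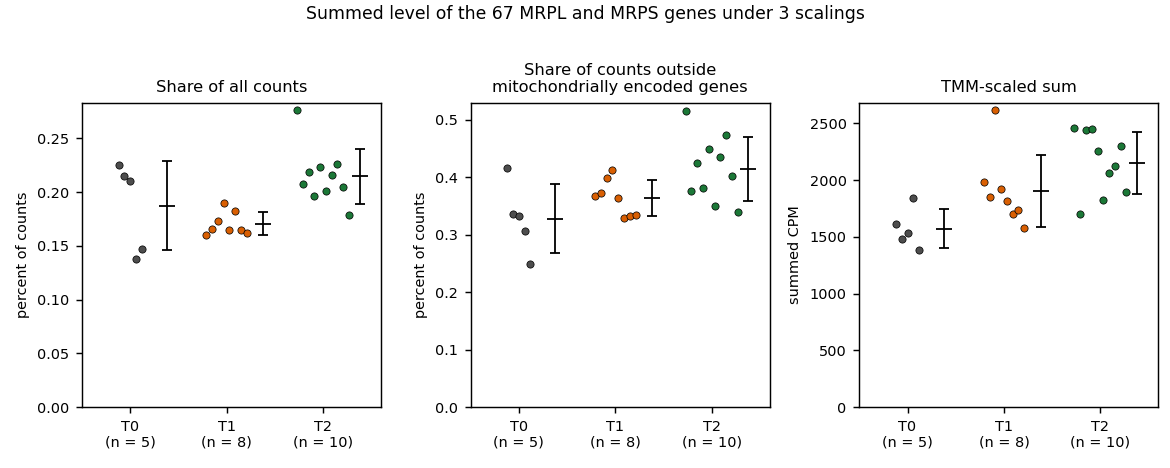
Summed level of the 67 genes in each library (points) with the mean and SD of each group (bars), as percent of all counts, as percent of counts outside mitochondrially encoded genes, and as summed TMM-scaled CPM. T1 lies below T0 on average in the first panel (0.17% against 0.187%) and above it in the other panels.

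Muscle at the end of the season was compared with untrained muscle. Of the 67 genes, 36 rose in T2 relative to T0, 0 fell and 31 did not pass. The threshold was an adjusted p of 0.05 (Benjamini-Hochberg, over 11545 genes) in edgeR's quasi-likelihood test. Over all genes tested, 6.73% were called higher, 9.3% lower and 16% in either direction in this comparison. At an unadjusted p under 0.05, 54 of the 67 were higher and 0 lower. The log2 fold changes had a median of 0.44 over the 67 genes and -0.03 over all genes tested, 66 of the 67 were above 0, and the called ones ran from 0.35 (MRPL50) to 0.84 (MRPL42).

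MRPS31, a small subunit protein found only in mitochondria (ENSECAG00000003600, chromosome 17, 18742806 to 18778545), had the smallest p of the comparison among the 67 genes. Its T0 values were 16.6, 14.8, 12.8, 16.1 and 10.9 CPM in m8, m9, m10, m12 and m13, and its T2 values ran from 15.3 (m15) over a median of 22.5 to 27 CPM (m17). Only the T2 library m15 lay within the T0 range. MRPS31 averaged 14.2 CPM (SD 2.37) over the 5 T0 libraries and 22 (SD 3.54) over the 10 T2 libraries, a log2 fold change of 0.63 ± 0.12 (SE, edgeR adjusted p = 0.0033).

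MRPL2, a conserved protein near the site of peptide bond formation (chromosome 20, 42104443 to 42107943), had 23, 21.1, 22.4, 17.9 and 17.7 CPM in the T0 libraries, in the same library order. Its T2 libraries ran from 24.6 (m23) over a median of 30.5 to 41.4 CPM (m14), so all 10 lay above all 5 of T0. It rose by 0.60 ± 0.13 on the log2 scale (edgeR adjusted p = 0.00487). MRPL19, a large subunit protein of bacterial descent (chromosome 15, 27602266 to 27608747), had 9.58, 8.60, 7.89, 9.12 and 7.54 CPM in T0 and from 11.1 (m23) over 13.2 to 16.3 CPM (m22) in T2. These groups did not overlap either, and the log2 fold change was 0.64 ± 0.14 (adjusted p = 0.00546).

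MRPL40, a large subunit protein without a bacterial counterpart (scaffold Un0002, 534410 to 537131), had 28.9, 27.1, 25.8, 29 and 26.8 CPM in T0 and from 29.4 (m23) over 40.3 to 53.2 CPM (m14) in T2, a rise of 0.56 ± 0.13 on the log2 scale (edgeR adjusted p = 0.00754). The groups were again apart, and the same held for MRPL17, so 4 of the 67 genes had all T2 libraries above all T0 libraries and 0 had them all below. Over all genes tested, 0.944% had them above and 1.72% below. MRPL17 was named for this after its values were seen.

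Among the other called genes, MRPL48, a mitochondria-specific large subunit protein, averaged 18.3 CPM (SD 3.01) in untrained horses and 28.8 (SD 5.51) at the end of the season, a log2 fold change of 0.65 ± 0.15 (edgeR adjusted p = 0.00699). MRPS30, which carries a small subunit name but sits in the large subunit of the mammalian mitoribosome, rose by 0.58 ± 0.13 (adjusted p = 0.00742). MRPS10, a conserved protein of the small subunit head, rose by 0.68 ± 0.16 (adjusted p = 0.00855). MRPS22, a small subunit protein mutated in inherited mitochondrial disease, rose by 0.46 ± 0.11 (adjusted p = 0.00841).

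MRPL12 forms the flexible stalk that recruits translation factors and is also known to bind the mitochondrial RNA polymerase. It averaged 64.3 CPM (SD 9.6, T0) and 89.2 (SD 16.4, T2) and rose by 0.47 ± 0.14 on the log2 scale (edgeR adjusted p = 0.0266). Leaving out m13 of T0 ended the call (adjusted p = 0.0896). MRPL11, at the base of that stalk, had 0.49 ± 0.18 (adjusted p = 0.0632). MRPL44, a large subunit protein with a ribonuclease III-like fold, had 0.32 ± 0.12 (adjusted p = 0.0686), MRPS16 had 0.29 ± 0.13 (adjusted p = 0.109), MRPS34 had 0.31 ± 0.15 (adjusted p = 0.138) and MRPL3 had 0.23 ± 0.12 (adjusted p = 0.192). These did not pass.

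MRPS36 bears a mitoribosomal symbol but is now known as a subunit that helps assemble the 2-oxoglutarate dehydrogenase complex of the tricarboxylic acid cycle. It had 86.3, 51.7, 69.2, 83.7 and 42.1 CPM in T0 and from 78.7 (m23) over 108 to 131 CPM (m14) in T2. It rose by 0.63 ± 0.16 on the log2 scale (edgeR adjusted p = 0.0107), and the T0 libraries m8 and m12 lay within the T2 range.

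The count of 36 depended on single libraries. It was 17 without T0 library m13, which had the lowest T0 value for 39 of the 67 genes, 47 without T1 library m3 and 48 without m3 and m12. Calls among all genes shifted in the same fits. With all libraries 777 of 11545 genes were called higher. Without m13 it was 306 of 11691, without m3 1133 of 11520, and without m3 and m12 1520 of 11700. Of the 67 genes, 2 were called higher with total counts and no scaling factor, and 14 with totals of genes outside the mitochondrial genome. Among all genes 46 of 11545 and 196 of 11583 were then called higher. Of the called genes of all kinds this was 2.9% and 19.2%, against 42% with TMM.

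**Figure D3:**
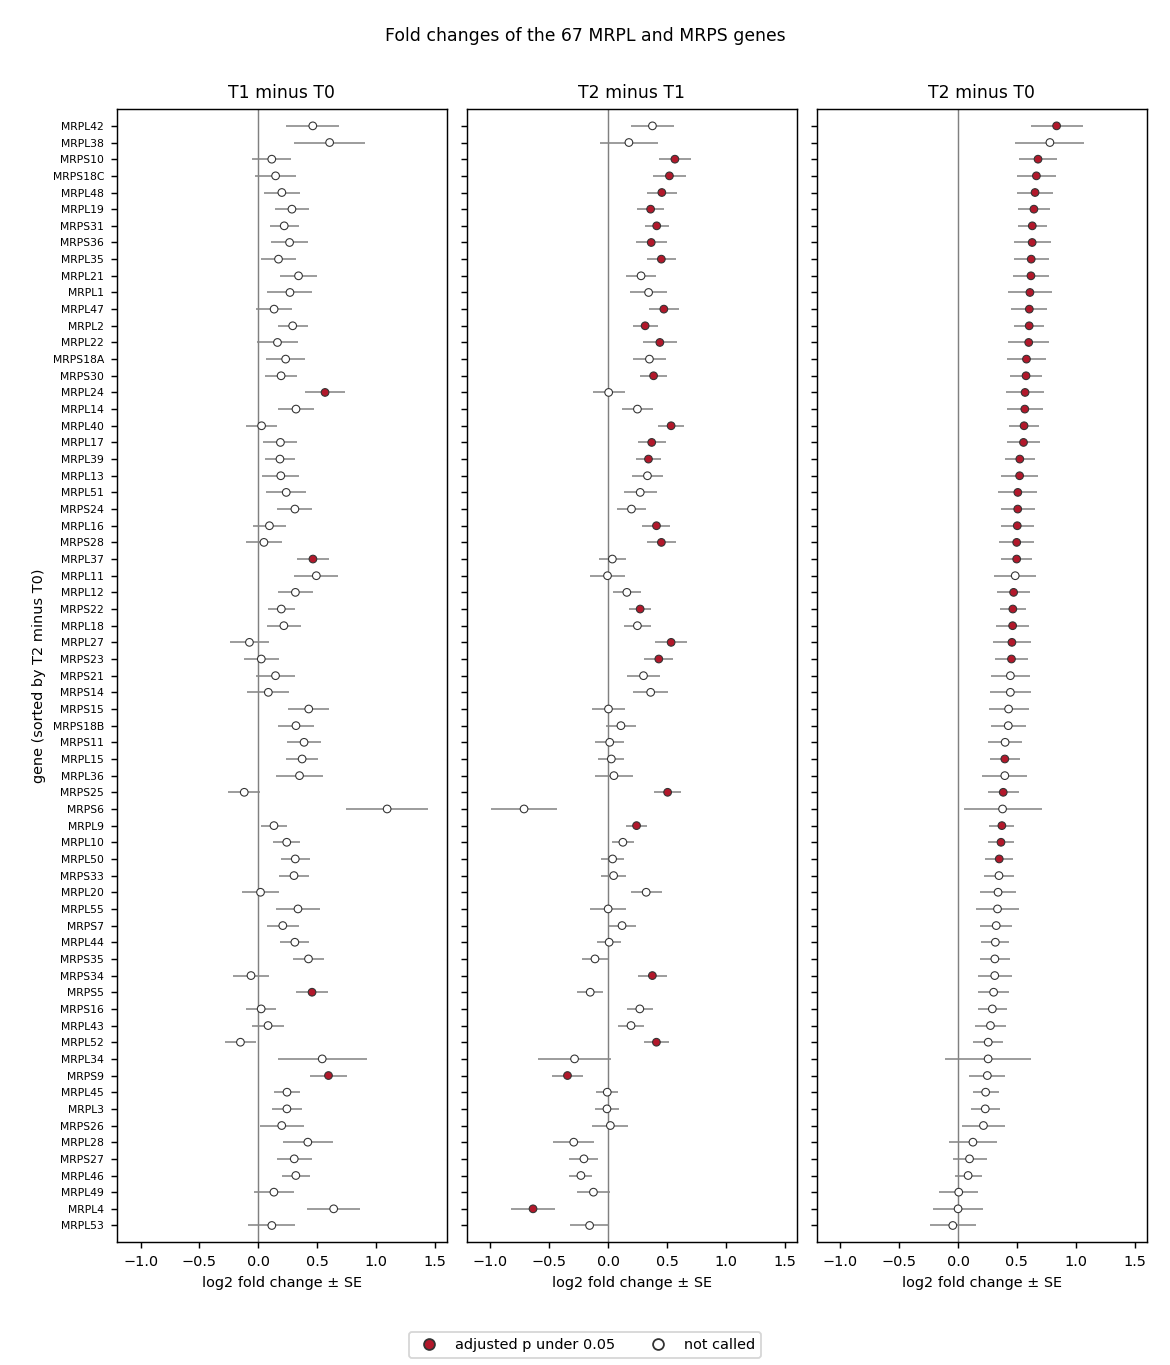
Log2 fold change (point) and its SE (line) of the 67 genes in the 3 comparisons, sorted by T2 minus T0, with filled points for an adjusted p under 0.05. Filled points number 4, 25 and 36 from left to right, and nearly all points lie right of 0 in the right panel.

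The end of the season was then compared with the gallop phase. Of the 67 genes, 23 rose in T2 relative to T1, 2 fell and 42 did not pass. Over all genes tested, 12.6% were called higher, 15.1% lower and 27.6% in either direction. No member had T1 and T2 libraries fully apart (0 of 67), against 0.788% of all genes higher and 1.45% lower. The median log2 fold change was 0.25 over the 67 genes and -0.01 over all genes tested. T2 minus T1 and T2 minus T0 share the T2 libraries, and T2 minus T1 and T1 minus T0 share the T1 libraries, so the 3 comparisons are not independent of each other.

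MRPL40 had from 20.5 (m11) over a median of 28.7 to 34 CPM (m4) in T1, close to its T0 values, before the higher T2 values given above. It rose by 0.53 ± 0.11 between T1 and T2 (edgeR adjusted p = 0.00107) and had 0.03 ± 0.13 between T0 and T1 (adjusted p = 0.941). MRPS25, a mitochondria-specific small subunit protein, ran from 21.7 (m11) over 30.6 to 36.9 CPM (m1) in T1 and from 31.8 (m15) over 43.6 to 56.7 CPM (m17) in T2. It rose by 0.50 ± 0.11 (adjusted p = 0.00211), and the groups overlapped.

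MRPS10 rose by 0.57 ± 0.14 between T1 and T2 (edgeR adjusted p = 0.00361) and MRPS31 by 0.41 ± 0.10 (adjusted p = 0.00459). MRPL27, the counterpart of the bacterial protein that reaches into the peptidyl transferase centre, averaged 21.3 CPM (SD 6.41, T1) and 30.8 (SD 5.57, T2) and rose by 0.53 ± 0.14 (adjusted p = 0.00527). MRPL52 rose by 0.41 ± 0.11 (adjusted p = 0.00697), MRPL47, which lies by the exit of the peptide tunnel, by 0.47 ± 0.13 (adjusted p = 0.00819), and MRPS18C by 0.52 ± 0.14 (adjusted p = 0.00872). In T1, library m3 gave the highest value of MRPS10, MRPL27, MRPL52, MRPL47 and MRPS18C, and without it the rise of MRPL27 was 0.68 and that of MRPS18C 0.63.

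Some proteins linked to human mitochondrial translation defects were called in this step with less margin. MRPS22 rose by 0.27 ± 0.09 (edgeR adjusted p = 0.0328) and MRPS34 by 0.37 ± 0.13 (adjusted p = 0.0272), whereas MRPS16 had 0.27 ± 0.11 (adjusted p = 0.0652). MRPS36 rose by 0.36 ± 0.13 (adjusted p = 0.0417). Among 23 refits with a different library missing each time, the call ended in 8 for MRPS22, in 1 for MRPS34 and in 12 for MRPS36. MRPL12 (0.16 ± 0.12), MRPL11 (-0.01 ± 0.15), MRPL3 (-0.01 ± 0.10) and MRPL44 (0.01 ± 0.10) did not pass.

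The 2 genes that fell in T2 relative to T1 were MRPL4 and MRPS9. MRPL4, a conserved protein that lines the peptide exit tunnel (chromosome 7, 49702053 to 49707789), had 21, 11.3, 15.2, 12.4 and 27 CPM in T0, from 18.1 (m11) over 28.7 to 31.1 CPM (m2) in T1 and from 9.30 (m17) over 17.6 to 24.1 CPM (m14) in T2. T1 was thus the high group, with overlap on both sides. MRPL4 had a log2 fold change of -0.64 ± 0.18 for T2 minus T1 (edgeR adjusted p = 0.0118), of 0.64 ± 0.23 for T1 minus T0 that did not pass (adjusted p = 0.0851), and of 0.00 ± 0.21 for T2 minus T0.

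MRPS9, a conserved protein of the small subunit head, had -0.35 ± 0.13 for T2 minus T1 (edgeR adjusted p = 0.0498). This call sat at the threshold, ended without m3 (-0.29, adjusted p = 0.0826) and ended in 17 of the 23 fits that left out 1 library. With the trend on gene span removed in each library it was -0.23 (adjusted p = 0.223).

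Leaving out m3 of T1 raised these 23 calls to 34, and leaving out m12 of T0 as well gave 36. Genes of all kinds called higher numbered 1450 of 11545 with all libraries, 1852 of 11520 without m3 and 1987 of 11700 without m3 and m12. Mitoribosomal genes called higher numbered 35 in limma voom with sample weights and 36 with total counts and no scaling factor. Among all genes 2123 and 2073 of 11545 were then called higher in turn. With total counts 76.6% of called genes of all kinds were higher, against 45.5% with TMM.

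Muscle after the gallop phase was compared with untrained muscle. Of the 67 genes, 4 rose in T1 relative to T0, 0 fell and 63 did not pass, and 63 had a log2 fold change above 0. Over all genes tested, 3.57% were called higher, 3.34% lower and 6.91% in either direction, so a count of 4 stood near that background. The median was 0.24 over the 67 genes and -0.02 over all genes tested, and 21 of the 67 had an unadjusted p under 0.05, all of them higher in T1. The T0 and T1 libraries were fully apart for 0 of the 67 genes, against 1.86% of all genes with T1 higher and 1.12% with T1 lower.

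MRPS9 had 15.8, 19.6, 15, 24.1 and 14.5 CPM in T0 and from 23.2 (m11) over a median of 25.3 to 34.6 CPM (m3) in T1. The T0 library m12 was the only one above the lowest T1 value. MRPS9 rose by 0.59 ± 0.16 on the log2 scale (edgeR adjusted p = 0.0252). MRPL24, a conserved early-assembling large subunit protein, had 23.7, 18.6, 16.3, 29.1 and 16.1 CPM in T0 and from 22 (m6) over 29.9 to 49.4 CPM (m3) in T1, a rise of 0.57 ± 0.17 (adjusted p = 0.0415).

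MRPL37, a mitochondria-specific protein of the large subunit, averaged 31.5 CPM (SD 4.38, T0) and 43.4 (SD 7.43, T1) and rose by 0.46 ± 0.14 (edgeR adjusted p = 0.0403). MRPS5, a conserved protein of the small subunit's mRNA entry side, rose by 0.45 ± 0.14 (adjusted p = 0.044). Library m3 was the highest T1 value of all 4 genes. Without it MRPS9 had 0.55 (edgeR adjusted p = 0.037), while the calls of MRPL37 (0.40, adjusted p = 0.0556), MRPL24 (0.45, adjusted p = 0.0576) and MRPS5 (0.36, adjusted p = 0.0604) ended. The 4 calls were unstable: those of MRPS9, MRPL37, MRPL24 and MRPS5 ended in 3, 9, 7 and 11 of the 23 fits that left out 1 library.

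Of the panel that includes MRPL12 and MRPL11, 8 genes were measured, and their estimates between T0 and T1 did not pass: MRPL12 had 0.31 ± 0.15 (edgeR adjusted p = 0.205), MRPL11 0.49 ± 0.19 (0.108), MRPL44 0.31 ± 0.12 (0.132), MRPL3 0.24 ± 0.13 (0.271), MRPS22 0.19 ± 0.11 (0.331), MRPS36 0.26 ± 0.16 (0.355), MRPS16 0.02 ± 0.13 (0.949) and MRPS34 -0.06 ± 0.15 (0.861). With total counts and no scaling factor, MRPS16 had -0.38 and passed in the other direction (adjusted p = 0.0221).

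These 4 calls became 0 when m10 of T0 was left out, 1 when m8, m9 or m13 of T0 or m1 or m3 of T1 was, and 2 when m2 or m4 of T1 was. Calls among all genes shifted in the same fits. With all libraries 412 of 11545 genes were called higher, and without m10 it was 204 of 11631. In the other fits named it ran from 277 (without m13) to 387 (without m4). There was 1 call with only T0 and T1 in the fit, 5 without m3 and m12, while DESeq2 made 8 and limma voom made 9. Among all genes 311 of 11245, 442 of 11700, 650 of 11545 and 752 of 11545 were called higher in turn. With total counts and no scaling factor 0 rose and 5 fell, and with totals of genes outside the mitochondrial genome 1 rose. Of called genes of all kinds, 3.8% and 30% were then higher, against 51.6% with TMM. With total counts, 127 of 11545 genes of all kinds were called higher and 3250 lower.

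Markers of fibre type and of other cell types moved between the groups in the same libraries. The summed level of 15 of 15 slow fibre contractile genes spanned 11084 to 40181 CPM (T0), 36780 to 150552 (T1) and 14230 to 52427 (T2). That of the 12 measured of 15 fast fibre symbols spanned 54230 to 118373 CPM (T0), 4699 (m3) to 59838 (T1) and 54981 to 129870 (T2). For 5 measured of 6 fibroblast markers it spanned 89.5 to 382 CPM (T0), 64.5 to 164 (T1) and 80.8 to 283 (T2). For 5 measured of 6 smooth muscle and pericyte markers it spanned 75.4 to 426 CPM (T0), 78.4 to 143 (T1) and 87.7 to 204 (T2). In T1 relative to T0, 13 of 15 slow fibre genes rose, 5 of 13 fast fibre identifiers fell and 2 of 5 fibroblast markers fell. In T2 relative to T1, 12 of 15 slow fibre genes fell, 11 of 13 fast fibre identifiers rose, and 2 of 9 muscle-defining genes, 1 of 5 smooth muscle and pericyte markers and 1 of 3 macrophage markers fell. Over all genes tested, 15.1% were called lower there. The median was -0.33 over the 9 muscle-defining genes, all below 0. It was 0.60 over the 5 smooth muscle and pericyte markers (3 above 0) and 0.18 over the 3 macrophage markers (2 above 0). In T2 relative to T0, 1 slow fibre gene rose, with a median of 0.41 over the 15, and 2 of 5 smooth muscle and pericyte markers fell, with a median of -0.78 over the 5. No listed marker that was measured was at 0 as a sum in any library, and the part of these cell mixes in the mitoribosomal changes was not tested.

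By subunit, the counts and medians were as follows. Of 43 genes of the large subunit, MRPS30 and MRPS18A included, 27 rose in T2 relative to T0 with a median of 0.49, and of 23 genes of the small subunit 8 rose with a median of 0.40. Of 26 large subunit genes with a bacterial homologue 18 rose (median 0.48) and of 17 mitochondria-specific ones 9 rose (median 0.50). Of 13 conserved small subunit genes 4 rose (median 0.43) and of 10 mitochondria-specific ones 4 rose (median 0.37). Over all genes tested, 6.73% were called higher in that comparison. The difference between the subunits was not tested.

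**Figure D4:**
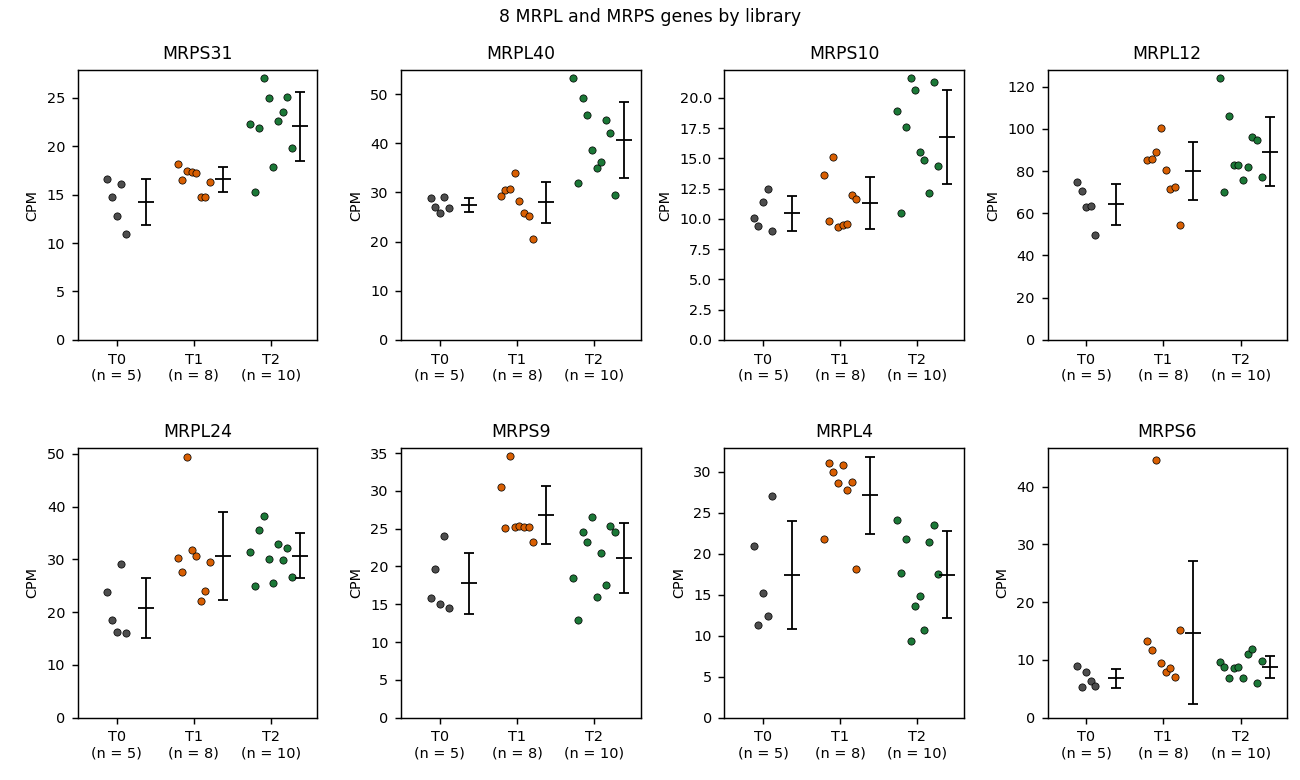
CPM of 8 genes in each library (points) with the mean and SD of each group (bars); each axis starts at 0. MRPS31, MRPL40, MRPS10 and MRPL12 are highest on average in T2, MRPS9 and MRPL4 are highest in T1, MRPL24 is alike in T1 and T2, and MRPS6 has 1 T1 library (m3) at 44.6 CPM.

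The spread between libraries differed widely among the genes. The largest SD of log2 CPM within groups was that of MRPL34 (0.685), followed by MRPS6 (0.562) and MRPL38 (0.561), and the smallest were those of MRPL9 (0.169), MRPS22 (0.181) and MRPL50 (0.182). MRPL34 ran from 6.04 to 37.2 CPM within T2 and had no call, with log2 fold changes of 0.54 ± 0.38, -0.29 ± 0.31 and 0.26 ± 0.36 for T1 minus T0, T2 minus T1 and T2 minus T0. MRPL38 had the second largest T2 minus T0 estimate of the 67 genes, 0.78 ± 0.29, and did not pass (edgeR adjusted p = 0.0685).

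MRPS6, a conserved small subunit protein, had 9.01, 5.32, 7.94, 6.25 and 5.40 CPM in T0, from 6.98 (m7) over 10.6 to 44.6 CPM (m3) in T1 and from 5.91 (m22) over 8.81 to 11.9 CPM (m21) in T2. Apart from m3, whose next neighbour was at 15.1 CPM, the groups overlapped. Its T1 minus T0 estimate of 1.09 ± 0.35 did not pass (edgeR adjusted p = 0.0587), and without m3 it was 0.62 (adjusted p = 0.067). MRPL9, by contrast, rose by 0.37 ± 0.11 in T2 relative to T0 (adjusted p = 0.0205) from a mean of 23 CPM (SD 2.62) to 29.7 CPM (SD 2.44). MRPL50 rose by 0.35 ± 0.12 (adjusted p = 0.0427).

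The genes also shared some features of position. The authors' coordinates come with no build named in the sources used here. On them, 65 of the 67 lay on autosomes and 2, MRPL40 and MRPL52, on unplaced scaffolds, with 7 on chromosome 11. The genes were short, with a median span of 6.48 kb against 18.7 kb for tested genes with a position. MRPS11 (chromosome 1, 94672797 to 94684006) and MRPL46 (94684381 to 94693756) lay 374 bases apart. MRPS11 had log2 fold changes of 0.39 (T1 minus T0), 0.01 (T2 minus T1) and 0.40 (T2 minus T0), and MRPL46 had 0.32, -0.23 and 0.09 in the same order. Neither was called. This pair was named for its distance.

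The annotated span of MRPS24, 14763415 to 14938945 on chromosome 4, runs over 5 other genes, among them PGAM2, an abundant glycolytic gene of fast fibres. The library kit named in the labels does not mark strand, so reads in exon sequence shared by overlapping genes cannot be told apart. Only whole spans were compared, and whether exons are shared was not tested, so the values of MRPS24 may be uncertain. MRPS24 rose by 0.51 ± 0.14 in T2 relative to T0 (edgeR adjusted p = 0.0207), and PGAM2 had 0.15 ± 0.23 there. The span of MRPL43 overlaps that of SLF2, and its values may be uncertain for the same reason.

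A trend on gene span was visible in the libraries. At the span of the mitoribosomal genes, the trend in log2 CPM against each gene's mean ran from -0.08 to 0.00 in T0, from -0.11 to 0.14 (m3) in T1 and from -0.01 to 0.15 (m16) in T2. With this trend removed in each library, 29 of the mitoribosomal genes rose in T2 relative to T0. In T2 relative to T1 20 rose and 4 fell, and in T1 relative to T0 5 rose. That fit tested only the 9595 genes with a position outside the mitochondrial genome. Of these, 700, 1397 and 432 were called higher in turn, and 1405 lower in T2 relative to T1. The medians of the mitoribosomal genes were then 0.36, 0.18 and 0.23.

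Some mitoribosomal proteins have symbols that do not begin with MRPL or MRPS. Of 5 measured, 2 rose in T2 relative to T0: CHCHD1 by 0.73 ± 0.15 (edgeR adjusted p = 0.00415) and ICT1, a peptidyl-tRNA hydrolase built into the large subunit, by 0.51 ± 0.15 (adjusted p = 0.0219). CHCHD1 also rose in T2 relative to T1, by 0.62 ± 0.12 (adjusted p = 0.000787). DAP3, a GTP-binding small subunit protein, rose in T1 relative to T0, by 0.48 ± 0.12 (adjusted p = 0.0161). Over all genes tested, 6.73% (T2 minus T0), 12.6% (T2 minus T1) and 3.57% (T1 minus T0) were called higher.

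Factors that work with the mitoribosome were mixed. For this list and those below, the shares of all genes called higher were 3.57% (T1 minus T0), 12.6% (T2 minus T1) and 6.73% (T2 minus T0). Those called lower were 3.34%, 15.1% and 9.3% in turn. Of 16 mitochondrial translation factors, 10 rose and 0 fell in T2 relative to T0 (median 0.49), 3 rose and 3 fell in T2 relative to T1, and 2 rose in T1 relative to T0. SLIRP, which stabilizes mitochondrial mRNAs, averaged 22 CPM (SD 3.64, T0) and 40 (SD 7.04, T2) and rose by 0.86 ± 0.17 (edgeR adjusted p = 0.00333), and MTRF1, a release factor relative, by 0.61 ± 0.13 (adjusted p = 0.00576). Between T1 and T2 SLIRP rose by 0.64 ± 0.14 (adjusted p = 0.00175), and GFM1, an elongation factor, had -0.37 ± 0.09 (adjusted p = 0.00417). TACO1, a translational activator of a cytochrome c oxidase subunit, rose by 0.57 ± 0.15 between T0 and T1 (adjusted p = 0.0223), and TUFM, the mitochondrial elongation factor Tu, by 0.43 ± 0.13 (adjusted p = 0.0489).

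Of 29 genes of mitoribosome assembly and rRNA processing, 7 rose and 0 fell in T2 relative to T0, 6 rose and 1 fell in T2 relative to T1, and 2 rose in T1 relative to T0. METTL17, which takes part in small subunit assembly, rose by 0.86 ± 0.17 in T2 relative to T0 (edgeR adjusted p = 0.00391) and MTERF4 by 0.45 ± 0.11 (adjusted p = 0.00761). ERAL1, a chaperone of the small subunit rRNA, rose by 0.47 ± 0.09 in T2 relative to T1 (adjusted p = 0.000822) and MTERF3 by 0.56 ± 0.12 (adjusted p = 0.00184). FASTKD2 rose by 0.51 ± 0.13 (adjusted p = 0.0175) and RNMTL1, a methyltransferase of the large subunit rRNA, by 0.40 ± 0.12 (adjusted p = 0.0484) in T1 relative to T0.

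Mitochondrial aminoacyl-tRNA synthetases charge the tRNAs that the mitoribosome uses, and 19 genes of tRNA charging were listed. Of these, 5 rose in T1 relative to T0, 1 rose and 1 fell in T2 relative to T1, and 4 rose in T2 relative to T0. TARS2 averaged 15 CPM (SD 1.42, T0) and 23.7 (SD 3.35, T1) and rose by 0.66 ± 0.13 (edgeR adjusted p = 0.00349), and HARS2 by 0.59 ± 0.12 (adjusted p = 0.00465). LARS2 had -0.94 ± 0.14 in T2 relative to T1 (adjusted p = 5.33e-05), and GARS, which serves cytosol and mitochondria, rose by 0.63 ± 0.14 (adjusted p = 0.0013). In T2 relative to T0, QRSL1 rose by 0.57 ± 0.14 (adjusted p = 0.0112) and TARS2 by 0.47 ± 0.12 (adjusted p = 0.0123). QRSL1 is not a synthetase but an amidotransferase subunit that acts on a charged tRNA.

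Of 11 genes of mitochondrial DNA upkeep and transcription, 3 rose in T2 relative to T0, 2 rose and 1 fell in T2 relative to T1, and 0 passed in T1 relative to T0, where 4 had an unadjusted p under 0.05 (edgeR). SSBP1, the mitochondrial single-strand DNA binding protein, rose by 0.81 ± 0.13 in T2 relative to T1 (edgeR adjusted p = 0.000133) and by 0.60 ± 0.16 in T2 relative to T0 (adjusted p = 0.0129). TFB2M, a transcription factor of the mitochondrial genome, rose by 0.41 ± 0.10 in T2 relative to T0 (adjusted p = 0.00934). TFAM, which packages mitochondrial DNA, had -0.33 ± 0.11 in T2 relative to T1 (adjusted p = 0.0301).

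Of 11 nuclear regulators of mitochondrial biogenesis, 2 rose in T1 relative to T0, 3 fell in T2 relative to T1 and 1 fell in T2 relative to T0. ESRRB, an oestrogen-related receptor, rose by 1.21 ± 0.25 in T1 relative to T0 (edgeR adjusted p = 0.00528) and had -1.56 ± 0.21 in T2 relative to T1 (adjusted p = 1.54e-05), at means of 0.948, 2.17 and 0.722 CPM in T0, T1 and T2. ESRRA rose by 0.45 ± 0.12 in T1 relative to T0 (adjusted p = 0.0233), and the coactivator PPARGC1B had -0.88 ± 0.25 in T2 relative to T1 (adjusted p = 0.0102). NRF1, a regulator of nuclear genes for mitochondrial proteins, had -0.45 ± 0.14 in T2 relative to T0 (adjusted p = 0.031). In T2 relative to T0, 0 of these 11 regulators were called higher and 1 lower. Over all genes 6.73% were called higher and 9.3% lower there, so both counts stood near that background. Any link between the RNA of these regulators and that of the mitoribosomal genes was not tested.

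The products and partners of the mitoribosome were set beside it. Among 57 nuclear genes of oxidative phosphorylation, 44 were called higher and 0 lower in T2 relative to T0 (median 0.55), 5 rose in T2 relative to T1 (median 0.16) and 9 rose in T1 relative to T0 (median 0.43). The 5 of 57 in T2 relative to T1 lay below the 12.6% of all genes called higher there. COX5A rose by 0.70 ± 0.15 in T2 relative to T0 (edgeR adjusted p = 0.00545) and NDUFV2 by 0.63 ± 0.14 (adjusted p = 0.006). For these genes the larger of the 2 successive median steps was the first, and for the mitoribosomal genes the steps were of like size, 0.24 and 0.25. That likeness depended on m3. Without m3 the mitoribosomal steps were 0.19 and 0.32, and without m3 and m12 they were 0.24 and 0.32. The difference between the lists was not tested. Of 12 mitochondrially encoded protein genes, 0 passed in T1 relative to T0, where all 12 were above 0 and 11 had an unadjusted p under 0.05 (edgeR; median 0.55). In T2 relative to T1 ND5 and ND4L fell and all 12 were below 0 (median -0.23), and in T2 relative to T0 0 passed, where 1 had an unadjusted p under 0.05 (edgeR; median 0.30).

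Cytosolic ribosomal protein genes gave fewer calls. Of 58, with paralogs of like name included, 2 rose in T2 relative to T0 (median 0.38), 4 rose in T2 relative to T1 (median 0.22), and 0 passed in T1 relative to T0, where 1 was higher and 1 lower at an unadjusted p under 0.05 (edgeR). Their median SE was 0.23 for T2 minus T0, against 0.15 for the mitoribosomal genes. The called genes were RPL26L1 (0.55 and 0.40) and RPS27L (0.59 and 1.05) in both comparisons with T2, and RPL22L1 (0.95) and RPL7L1 (0.35) in T2 relative to T1. All 4 are paralogs whose symbols mark them as like a standard ribosomal protein. This was noticed after the values were seen.

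**Figure D5:**
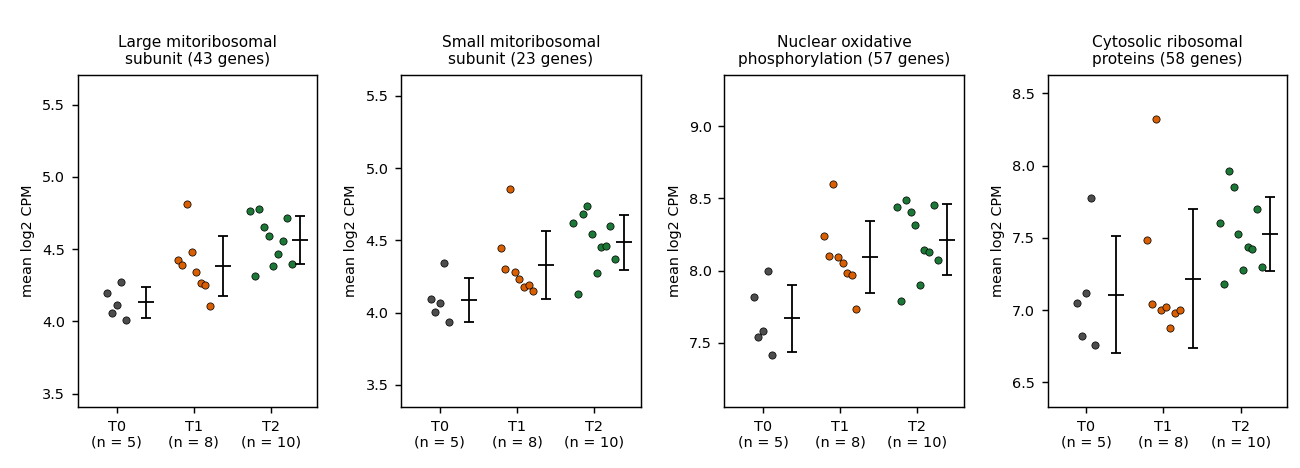
Mean log2 CPM over the genes of each list in each library (points) with the mean and SD of each group (bars); the 4 axes start at different levels and all span 2.3 log2 units. Library m3 is the highest T1 point in all 4 panels and m12 the highest T0 point.

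The sexes were compared with time point in the model, 14 male against 9 female libraries. Of the 67 genes 0 passed in edgeR, where 7 had an unadjusted p under 0.05, and 0 passed in DESeq2 or limma voom. Over all genes tested, 0% were called higher and 0% lower in males. The median log2 difference of the 67 genes, male minus female, was 0.14 with TMM, 0.01 with total counts and no scaling factor, and 0.06 without libraries m3 and m12. The smallest p-values were those of MRPS9 (0.31 ± 0.11, edgeR adjusted p = 0.742), MRPL11 (0.35 ± 0.12, adjusted p = 0.752), MRPL50 (0.20 ± 0.08, adjusted p = 0.776) and MRPS27 (0.24 ± 0.11, adjusted p = 0.776).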

How the data were processed

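Gene-level expected counts estimated by RSEM were deposited by the authors as whole numbers, with no normalization. FastQC, STAR, RSEM and DESeq2 are named, without versions, per the submitters' processing notes. The genome build, and how technical repetitions were pooled, are not given in the sources used here. In addition, the authors' deposited comparison tables, which hold log2 fold changes with DESeq2 p-values and a mean normalized signal per gene, were used only for symbols and positions (9628 genes, 8842 with a symbol), since they name groups by letters. Transcript tables were not used, because each of the 67 genes has 1 annotated transcript. Symbols outside those tables were not analysed here, and no sequence was used.

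Genes were kept by filterByExpr (minimum count 10, minimum total 15), which left 11545. With TMM factors, edgeR 4.0.16 (R 4.3.3) fitted all 23 libraries together with a term for time point, for the sexes also one for sex, and tested contrasts by its quasi-likelihood method with robust estimation. Adjustment was by Benjamini-Hochberg across the tested genes, with a threshold of 0.05. SE is the absolute log2 fold change divided by the square root of F. CPM used TMM-scaled library sizes and log2 CPM a prior count of 2. Counting error adds to the spread between libraries, and totals ran from 12185608 to 23641809.

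Named genes were up to 8 called per direction and comparison by p, the 5 highest and 5 lowest by CPM, a panel of 8 measured genes, the 3 with the largest and 3 with the smallest spread, the 4 smallest p where fewer than 4 were called, and up to 2 called genes per pathway list. The members and lists were chosen with earlier results of these data known.

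Alternatives were median ratio factors, no filter, DESeq2 1.42.0, limma 3.58.1 voom with sample weights, mitochondrially encoded genes removed before scaling, sex as a covariate, only the 2 time points compared, quasi-likelihood estimation without the robust option, and each library left out in turn. Added after seeing the data were leaving out m3 and m12 together, 2 totals without scaling factors and removal of a lowess trend on gene span. The test was checked on simulated data with set fold changes. Of 100 genes changed 1.4-fold, it recovered 9% (T1 minus T0), 34% (T2 minus T1) and 24% (T2 minus T0). Of 100 genes changed 2-fold, it recovered 79%, 90% and 84% in turn. False calls numbered 2, 5 and 2 in turn. Figures used matplotlib 3.10.9 in Python 3.11.15.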

Additional observations from a re-analysis of the deposited data

Results flagged for a closer look

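Within groups of 5, 8 and 10 libraries, the highest or lowest value was compared with its nearest neighbour by Dixon's ratio at the 95% level for the named genes and 3 summary values. Of 123 groups checked, 22 had a library that stood apart. The ratio's level is about 1 in 20 for a single check. The checks share the same 23 libraries, and some genes were named for their p or their spread. They are therefore not independent, and the 22 cannot be set against that rate.

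In T1 the library was m3 each time, and always the highest: MRPL11 at 58.7 CPM, MRPL19 at 15.8, MRPL24 at 49.4, MRPL27 at 36.2, MRPL37 at 59.3, MRPL48 at 30.8, MRPL52 at 37.1, MRPL9 at 34.1, MRPS15 at 252, MRPS16 at 23.9, MRPS22 at 31.3, MRPS5 at 52.6 and MRPS6 at 44.6 CPM. Its mean log2 CPM of the 67 genes was 4.85, against 4.46 for the next T1 library. As a share of all counts m3 did not stand apart.

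In T0, m12 was highest for MRPS15 (144 CPM), MRPS24 (66.0 CPM), MRPS25 (44.0 CPM) and MRPS30 (30.8 CPM), and m13 was lowest for MRPL15 (77.9 CPM) and MRPL50 (5.17 CPM). In T2, m15 was lowest for MRPS5 (21.8 CPM), and m14 had the highest share of all counts taken by the 67 genes (0.276%, next 0.226%). The causes were not tested.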

How the results depend on the processing

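No paired analysis was possible because the labels number the libraries 1 to 23 without repeating a number across time points. For T1 relative to T0, the count of mitoribosomal genes called higher was 8 in DESeq2, 9 in limma voom, 1 with only those time points in the fit, 1 with totals of genes outside the mitochondrial genome and 0 with total counts, where 5 were lower, the median was -0.18 and MRPS16 had -0.38. With total counts 3250 of 11545 genes of all kinds were called lower. Calls among all genes shifted across these fits as well, as given above. Leaving out 1 library gave 0 to 5 mitoribosomal genes called higher. For T2 relative to T1, 35 were higher in limma voom, 36 without m3 and m12 and 36 with total counts. The count lower was 1 with median ratio factors, with no filter, with mitochondrially encoded genes removed, without robust estimation and without m3 and m12, 0 with total counts and 4 with the gene-span trend removed, and ran from 1 to 3 when 1 library was left out. For T2 relative to T0, 2 were higher with total counts (median 0.19) and 14 with totals outside the mitochondrial genome, and leaving out 1 library gave 17 to 47. The median of the 67 genes stood above that of all genes under each alternative. The fit with only 2 time points gives no sex contrast. Of the calls in single genes, 0 of 4 (T1 minus T0), 18 of 25 (T2 minus T1) and 17 of 36 (T2 minus T0) were made in each of the 23 fits that left out 1 library. Genes of low CPM and the 5 T0 libraries limit the precision.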
